A study of Mus musculus with 3 samples.

Results

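Genes that build and move cilia were followed in the mouse choroid plexus epithelium (CPE), the cell layer that secretes cerebrospinal fluid into the brain ventricles. The genes were taken by a rule on their names, which uses no measured value but was chosen with earlier results of these data known. They comprise the axonemal dyneins, the intraflagellar transport (IFT) genes with their dynein-2 and kinesin-2 motors, the tektins, the Bardet-Biedl syndrome (BBS) genes, genes of the central apparatus, 2 centriole and satellite genes, and the factors Foxj1 and Rfx1 to Rfx5. In all, 122 of the 41174 probes on the array and 56 of its 27845 gene names matched. No radial spoke head gene (Rsph) was listed under that name. CPE cells of 3 healthy adult C57BL/6 mice, for which no treatment or engineered allele is named, were laser dissected from the lateral ventricles. Their amplified RNA carried the red dye Cy5, and each mouse had an array on a slide of its own. RNA of RPE and choroid (RPE being the retinal pigment epithelium of the eye) from C57BL/6 mice, labelled with the green dye Cy3, was the common reference on all 3 arrays. Dyes were not swapped and the reference was 1 RNA, so dye bias stays in each ratio and the spread of the reference tissue is not part of the errors.

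A cilium is a rod of microtubules that grows from a centriole docked at the cell surface. IFT trains carry building material up the rod with kinesin-2 and back down with dynein-2, and the BBS complex carries membrane proteins in and out of it. A motile cilium needs in addition the axonemal dyneins that bend it, a central apparatus that sets its beat, and tektins that stiffen its microtubules. Foxj1 is the main transcription factor of the motile program, and the Rfx factors act on genes of motile and immotile cilia by binding a sequence called the X-box. CPE cells bear tufts of short cilia, and the light-sensing outer segment of a photoreceptor is itself a modified cilium.

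Because the Rfx factors are themselves members, X-boxes were searched in the promoters of the member genes. RefSeq promoters on build GRCm38.p6, reaching from 250 bases before to 50 bases after a gene's start, were found for 50 of 57 current gene symbols (1 name on the array covers 2 genes). An RFX X-box, on either strand, stood in 9 of 54 member promoters (16.7%) and in 502 of all 32851 promoters (1.53%). The genes were Spag16, Hydin, Dnaic1, Ift57, Tekt2, Kif17, Dnaic2 and Bbs1. The stretches before the start of the central apparatus genes Spag16 and Hydin are shown whole, with the X-box in capitals.
Spag16 (chr1:69826720-69826969, plus strand): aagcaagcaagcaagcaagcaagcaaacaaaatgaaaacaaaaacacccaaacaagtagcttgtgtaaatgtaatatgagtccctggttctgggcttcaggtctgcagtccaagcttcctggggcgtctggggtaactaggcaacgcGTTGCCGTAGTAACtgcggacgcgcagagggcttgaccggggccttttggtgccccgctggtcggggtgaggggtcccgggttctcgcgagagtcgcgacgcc
Hydin (chr8:110266727-110266976, plus strand): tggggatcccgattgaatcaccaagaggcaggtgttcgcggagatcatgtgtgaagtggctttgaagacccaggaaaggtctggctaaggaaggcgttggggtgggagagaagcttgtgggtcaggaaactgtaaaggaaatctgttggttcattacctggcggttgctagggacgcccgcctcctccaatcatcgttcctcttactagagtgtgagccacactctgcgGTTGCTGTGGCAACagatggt

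The other X-boxes are shown in windows of 30 bases, again with the X-box in capitals and 5′ to 3′ along the gene. For Ift57 the one of its 2 boxes that lies nearer to the start is shown. The box of Bbs1 lies just after the start, and the others lie before it.
Dnaic1 (chr4:41569767-41569796, plus strand): gcctgtcgGTTGCTGGGTAACcgcgtcagg
Ift57 (chr16:49699226-49699255, plus strand): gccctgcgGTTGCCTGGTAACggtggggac
Tekt2 (chr4:126325696-126325725, minus strand): agggggcgGTTGCTCGGCAACcagagccgc
Kif17 (chr4:138262170-138262199, plus strand): tcacggagGTTGCCCAGCAACggcgaacgc
Dnaic2 (chr11:114727378-114727407, plus strand): cggccaggGTTGCTAGGCAACtggtaaact
Bbs1 (chr19:4906605-4906634, minus strand): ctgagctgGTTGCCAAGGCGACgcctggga

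The shorter site GTTGCC, which overlapped most of these boxes, stood in 27 of 54 member promoters against 12.5% of all promoters. The forkhead site GTAAACA, searched because Foxj1 is a forkhead factor, stood in 3.70% of member promoters and in 3.65% of all promoters. Foxj1 and Pcm1 had no promoter in the table. Of the 8 genes with an X-box, Spag16, Hydin, Dnaic1 and Ift57 had a probe higher in CPE than in the reference, as described below. These were 4 of the 14 member genes that had a promoter and a higher probe. Among the 36 with a promoter and no higher probe, 4 had an X-box, and the difference was not tested. Tekt2 had a log2 ratio of 0.86, Bbs1 of 0.25 and Dnaic2 of -0.10, none of them past the threshold, and Kif17 was not tested. A match of letters does not show that a factor binds there.

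Over the whole module, 16 of the 56 genes had a probe higher in CPE than in the reference, and all of these except Pcm1 and Ift57 were genes of motility or transcription factors. The ratio of CPE over reference was tested for 76 of the 122 probes, those whose signal passed the well-above-background flag of the scanner on every array in the red or the green channel, and these cover 50 genes. A probe was called at an adjusted p under 0.05 in limma and a change of at least 2-fold. In CPE 19 probes of 16 genes were higher, against 7.09% of all 25847 probes tested, and 1 probe was lower, against 10.2% of all probes tested. The other 56 probes were not called. The median log2 ratio was 0.45 over the members tested and -0.04 over all probes tested. Since the filter passes a probe through its brighter channel, these counts describe the tested probes and not all members. The filter also weighs on the roles unequally. When both channels had to pass, 7 axonemal dynein, 1 central apparatus, 2 tektin and 23 IFT and motor probes were left. Of these, 3, 1, 2 and 1 were higher, against 9.00% of all 17951 probes that passed in both channels. The genes with no tested probe were Dnahc10, Dnahc7, Dnahc7b, Kif17, Tekt3 and Rfx4.

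**Figure D1:**
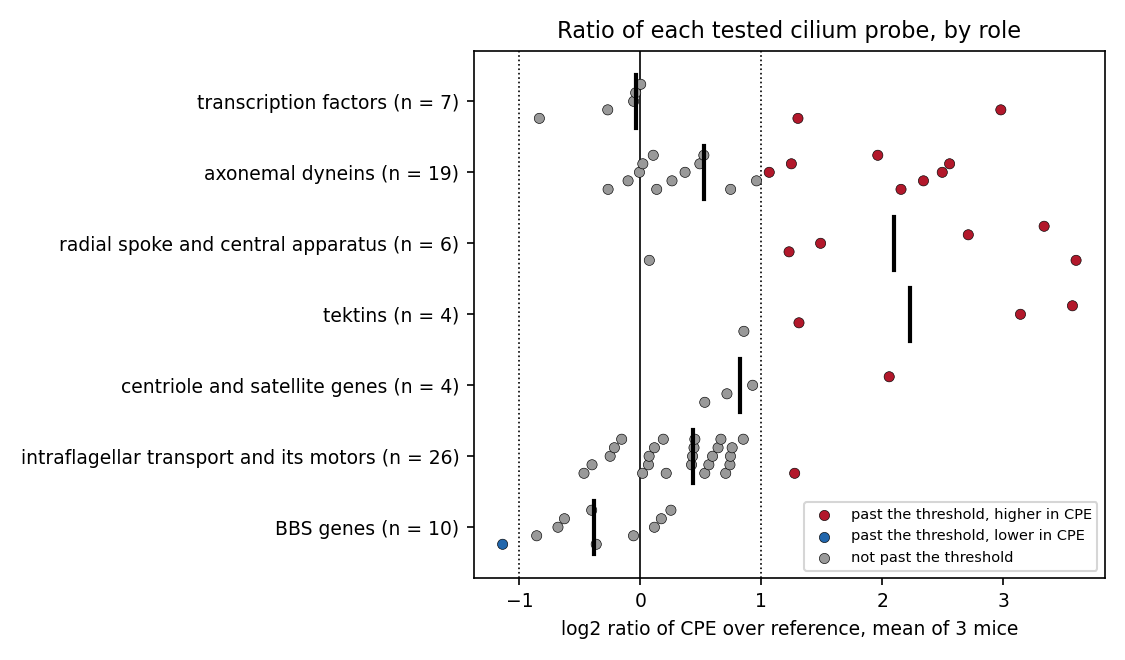
Mean log2 ratio of CPE over reference (x axis) of each of the 76 tested cilium probes, in rows by role. The thick line is the median of a role, the dotted lines mark 2-fold, and the colour shows the call. Most tested tektin and central apparatus probes lie beyond 2-fold, while 25 of 26 probes of intraflagellar transport and its motors lie below it or were not called. A probe could be tested through its brighter channel alone, so the share in a role is not that of all its probes.

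The ratio depended on the scaling of the arrays. With median centring in place of loess, 32 members were higher and none was lower, and all 19 higher calls were among the 32. Over all probes tested, 14.5% were then higher and 7.13% lower, in place of 7.09% and 10.2%. Of all calls on the array, 41.1% were higher in CPE after loess and 67.0% after median centring, and the median over all probes tested moved from -0.04 to 0.09. Of the 76 member probes, 10 changed sign, and none of these was called under either scaling.

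By rank on the array, 15 member probes fell in the high expression class (above the 90th percentile of the CPE channel), 52 in the moderate class (50th to 90th), 47 in the low class (10th to 50th) and 8 in the very low class. The high class thus held 12.3% of the member probes, and it held 4118 of the 41174 probes on the array. The high probes belonged to 12 genes, of which Ift20, Ift52, Ift57, Ift80, Ift122 and Ift172 are IFT genes. A class places a probe on the array and does not order genes by abundance.

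**Figure D2:**
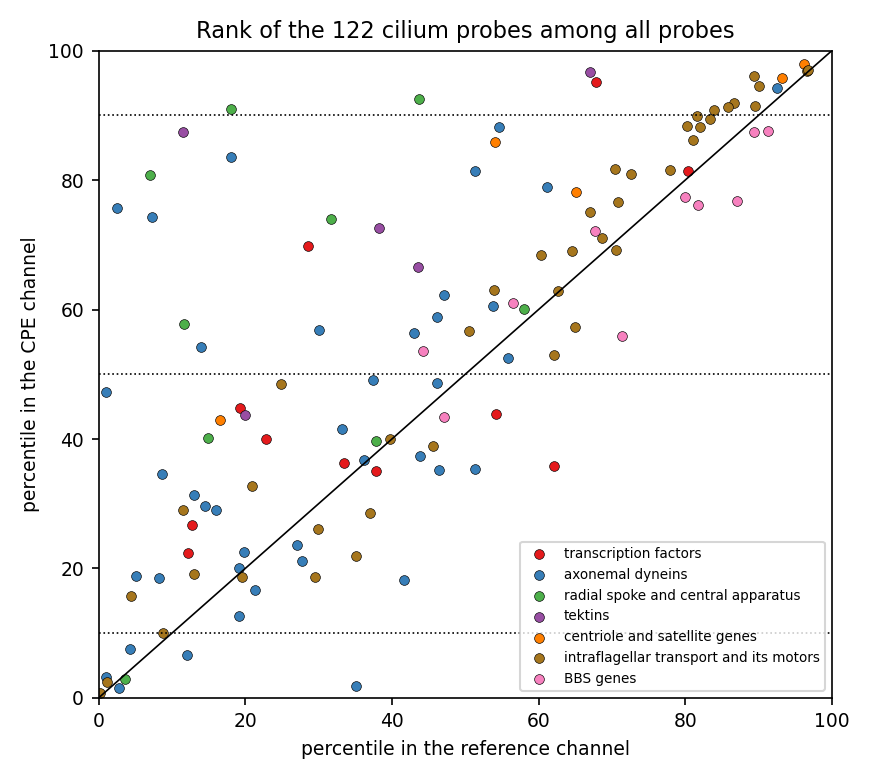
Percentile of each of the 122 member probes among all probes in the CPE channel (y axis) against the reference channel (x axis), coloured by role. Dotted lines divide the very low, low, moderate and high classes of CPE, and the solid line marks equal rank. Most probes of IFT genes lie near the line, while probes of Foxj1, Tekt1, Spag6 and Spag16 rank high in CPE and much lower in the reference.

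Among the transcription factors, Foxj1 and Rfx2 were higher in CPE. Foxj1 (probe at chr11:116146990-116147049 on mm8, minus strand) had log2 ratios of 3.65, 3.57 and 1.73 in mice 1, 2 and 3. All 3 mice were above 2-fold, and mouse 3 was the lowest. The mean was 2.98 (SE 0.36, adjusted p = 0.000636), and the probe ranked at percentile 95.2 in CPE and at 67.8 in the reference. Rfx2, an X-box factor of motile cilia, had log2 ratios of 1.50, 1.59 and 0.82, with a mean of 1.30 (SE 0.19, adjusted p = 0.00175), and its reference signal was above background on 2 of 3 arrays. Rfx3, the X-box factor best known for ciliary genes, was not called. Its probe A_52_P322514 had log2 ratios of -0.86, -0.78 and -0.86 (mean -0.83, adjusted p = 0.00393), below 0 in every mouse but short of 2-fold. The scanner software's own ratio for it was -2.30 and past the threshold. That probe was above background in the CPE channel on 1 array only, and a second tested Rfx3 probe had a mean of -0.04 (adjusted p = 0.869). Rfx1, a broadly expressed factor, had a mean of -0.06 (0.46 under median centring), and the 2 probes of Rfx5, known as a factor of the antigen presentation genes, had means of 0.00 and -0.27.

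The axonemal dyneins were split. Of 40 probes for 18 gene names, 19 were tested and 7, each of a different gene, were higher in CPE, while the other 12 were not called and none was lower. Dnahc11 (now Dnah11), a heavy chain of the outer arm, had log2 ratios of 2.95, 3.17 and 1.55 (mean 2.56, SE 0.30, adjusted p = 0.000596). Dnahc2, an inner arm heavy chain, had 3.15, 3.37 and 0.98 (mean 2.50, SE 0.42, adjusted p = 0.00304), and its reference signal was above background on 1 of 3 arrays. Dnahc9, a heavy chain of the outer arm, had 2.65, 3.12 and 1.26 (mean 2.34, SE 0.32, adjusted p = 0.00126). In these 3 genes mouse 3 was more than 1 unit below the other mice.

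The inner arm heavy chain Dnahc6 (mean 2.16), the inner arm light intermediate chain Dnali1 (1.96), the outer arm heavy chain Dnahc5 (1.25) and the outer arm intermediate chain Dnaic1 (1.07) were the other called dyneins. For Dnahc6, Dnali1 and Dnahc5 the reference signal was above background on 1 of 3 arrays, so these sizes are uncertain. A second tested Dnahc5 probe had a mean of -0.01, but its CPE signal was above background on 1 array only. Dnaic1 was near the threshold. Its ratios were 1.38, 1.36 and 0.45, and without mouse 1 or without mouse 2 its mean fell below 2-fold, to 0.91 and 0.92. Dnaic2, the partner chain of Dnaic1, had a mean of -0.10 with the CPE signal above background on 1 array. The highest rank among the dyneins was that of Dnalc4, at percentile 94.3, with nearly the same rank in the reference (92.6) and a ratio of 0.26 (adjusted p = 0.246). The testis dynein Dnahc8 had 3 probes, of which 2 were above background on no array in CPE. The dynein probes not called had means from -0.27 (Dnahc3) to 0.96 (a Dnahc7c probe), and Dnahc1 had 0.75 and 0.11. The name Dnahc7c covered probes on chromosome 1 and on chromosome 14, and the latter lie in the gene now called Dnah12.

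Of the central apparatus genes, Spag16, Spag6 and Hydin were higher in CPE. Spag16, a protein of the central pair, was higher at all 3 of its probes. Its probe A_52_P376460 (chr1:69859083-69859142 on mm8, plus strand) had log2 ratios of 3.94, 3.90 and 2.97 (mean 3.60, SE 0.22, adjusted p = 3.2e-05) and ranked at percentile 91.1 in CPE and at 18.1 in the reference, which was above background on 2 of 3 arrays. The probe A_51_P118506, toward the 3′ end, had 3.25, 3.28 and 1.61 (mean 2.71), with the reference above background on 1 of 3 arrays. The third, A_52_P609195, was not well above background in the reference on any array. It passed the threshold with 1.47, 1.13 and 1.09, but without a measured reference signal the size of that difference is not fixed.

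Spag6, another central pair protein, had log2 ratios of 3.92, 3.69 and 2.41 (mean 3.34, SE 0.28, adjusted p = 0.00013). By its accession this probe belongs to the gene now called Spag6l. Hydin, which forms a projection of the central pair and whose loss is known to cause hydrocephalus, had 1.74, 1.96 and 0.78 (mean 1.49, SE 0.24, adjusted p = 0.00244). The reference signal at that Hydin probe was above background on 2 of 3 arrays. Spag17, a further central pair gene, differed from these in its call. Its tested probe had a mean of 0.07 (adjusted p = 0.74), and the CPE signal of each of its 2 probes was above background on 2 arrays. Of the 6 tested probes in this group 5 were higher and none was lower.

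Of the 4 tektins, Tekt1 and Tekt4 were higher in CPE. The 2 probes of Tekt1 had means of 3.57 (SE 0.19, adjusted p = 1.77e-05) and 3.14 (SE 0.44, adjusted p = 0.00134). The first had log2 ratios of 3.83, 3.77 and 3.12 and ranked at percentile 96.7. The second had 4.04, 3.85 and 1.54, so that the mice spread much more at this probe, and in the scanner table it spans 6105 bases of the genome where most probes span 60. Tekt4 had 1.29, 1.51 and 1.14 (mean 1.31, SE 0.16, adjusted p = 0.000657), with the 3 mice close together after loess. By the scanner software its ratios were 2.30, 2.71 and 3.69, and its reference signal was above background on 2 of 3 arrays. Tekt2 had 1.06, 1.34 and 0.17 (mean 0.86, adjusted p = 0.0232), short of 2-fold, and was called without mouse 3. Tekt3 was not tested.

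Of the centriole and satellite genes, Pcm1, which scaffolds the satellites around centrioles, was higher. Its probe nearest the 3′ end had log2 ratios of 2.51, 1.99 and 1.68 (mean 2.06, SE 0.19, adjusted p = 0.000211), and a second probe had 1.75, 0.44 and 0.59 (mean 0.93, adjusted p = 0.0246). Cetn2, a small calcium-binding protein of the centriole, had the highest rank of all members, at percentile 98.0 in CPE and 96.3 in the reference. Its ratios were 0.80, 0.65 and 0.71 (mean 0.72, SE 0.15, adjusted p = 0.00783), above 0 in every mouse and below 2-fold. Both Cetn2 probes passed 2-fold under median centring.

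**Figure D3:**
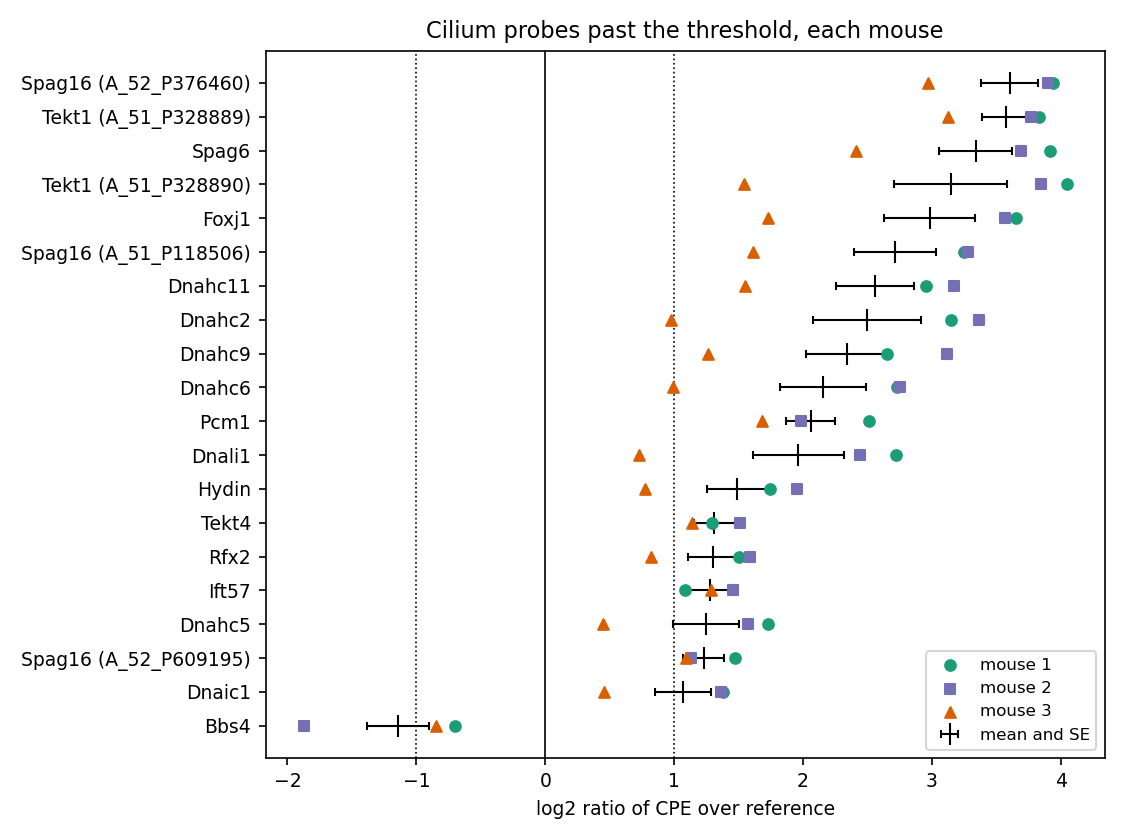
Log2 ratio of CPE over reference (x axis) in each mouse for the 20 called probes, with the mean and its SE from limma. Dotted lines mark 2-fold. Every mouse lies on the same side of 0 for all 20 probes, and mouse 3 is the lowest for 18 of the 19 that were higher.

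Of 42 probes for 16 genes of IFT and its motors, 26 were tested, 1 was higher and none was lower. That probe was of Ift57, a peripheral subunit of the IFT-B complex, with log2 ratios of 1.08, 1.46 and 1.29 (mean 1.28, SE 0.16, adjusted p = 0.000751). The 2 other tested Ift57 probes had means of 0.67 and 0.60. The median over the tested probes of the Ift genes alone was 0.53, and 16 of 17 lay above 0. Without the rule on fold, 10 of the 26 passed the adjusted p in the upward direction and none in the downward direction, while 16.9% of all probes tested passed upward and 22.3% downward.

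None of the other IFT-B genes was called. Ift88, the subunit whose mutation is best known for short cilia, had 0.59, 0.42 and 0.25 (mean 0.42, SE 0.16, adjusted p = 0.0655). Ift80 had a mean of 0.76 (adjusted p = 0.00911), Ift172 had means of 0.75, 0.74 and 0.44 at 3 probes, and Ift20, which also acts at the Golgi, had 0.07 and 0.02 at percentiles 96.9 and 97.0. Ift52 had means of 0.19 and -0.40, Ift81 of 0.57 and 0.21, and Ift74 of 0.43. Of the IFT-A genes, Ift122 had a mean of 0.64 and Ift140 of 0.53.

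Among the motors, the kinesin-2 subunit Kif3a had 0.47, 0.05 and -0.30 (mean 0.07, SE 0.19, adjusted p = 0.787), with mice on either side of 0. Kif3b had means of -0.15 and -0.47, and Kif3c of 0.12. The dynein-2 light intermediate chain Dync2li1 had 1.11, 0.74 and 0.71 (mean 0.85, adjusted p = 0.00521), and the dynein-2 heavy chain Dync2h1 had means from -0.25 to 0.71 at 4 tested probes. The number of called probes in this group was the one most open to scaling. With median centring, 11 of the 26 probes were higher in place of 1, with a median of 0.82 in place of 0.44. The share higher over all probes tested rose from 7.09% to 14.5%.

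The BBS genes had a median log2 ratio of -0.38 after loess, with 3 of their 10 probes above 0. All 10 probes of 6 genes were tested, none was higher and 1 was lower. Since 7.09% of all probes tested were higher and 10.2% lower, these counts do not set the group apart. Under median centring the median was 0.01 and no probe was called, so the direction of this group rests on the scaling. The called probe was A_52_P129354 of Bbs4, a subunit of the BBS coat, with log2 ratios of -0.70, -1.87 and -0.84 (mean -1.14, SE 0.24, adjusted p = 0.0083). All mice were below 0, but mouse 2 carried the size, and without mouse 2 the mean was -0.77 and not called. The other Bbs4 probe, which ranked higher in CPE, had -0.71, -0.70 and -0.48 (mean -0.63, adjusted p = 0.0147). Bbs7 had means of -0.86 and -0.06, Bbs2 of -0.68, Bbs5 of -0.40 and -0.36, Bbs10 of 0.17 and 0.12, and Bbs1 of 0.25. The difference between the groups of genes was not tested.

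Lists of further cilium genes, drawn up with results of these arrays known, were set beside the members. The shares to hold their counts against are those of all probes tested, 7.09% higher and 10.2% lower. Among 22 other genes of motile cilia, 30 probes were tested, 17 probes of 15 genes were higher and none was lower, with a median of 1.10. Among the largest ratios were those of the adenylate kinase Ak7 (3.39) and of Lrrc23 (2.95). Among 13 further IFT and BBS genes, 3 of 19 tested probes were higher, namely Wdr34 (1.90), Rabl5 (1.18) and Ttc26 (1.04), and none was lower, with a median of 0.49. Among 17 genes of the transition zone and the primary cilium, 2 of 29 tested probes were higher, among them that of Tulp3 (1.03). In that list 4 probes were lower, 3 of Rpgrip1 (down to -3.28), a protein of the photoreceptor cilium, and 1 of Arl13b (-1.64), a membrane GTPase of cilia. The median of that list was -0.03, and its higher probes were near the share over all probes tested. Of the 125 names on all lists, some of them older and newer names of 1 gene, 30 were not found on the array.

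**Figure D4:**
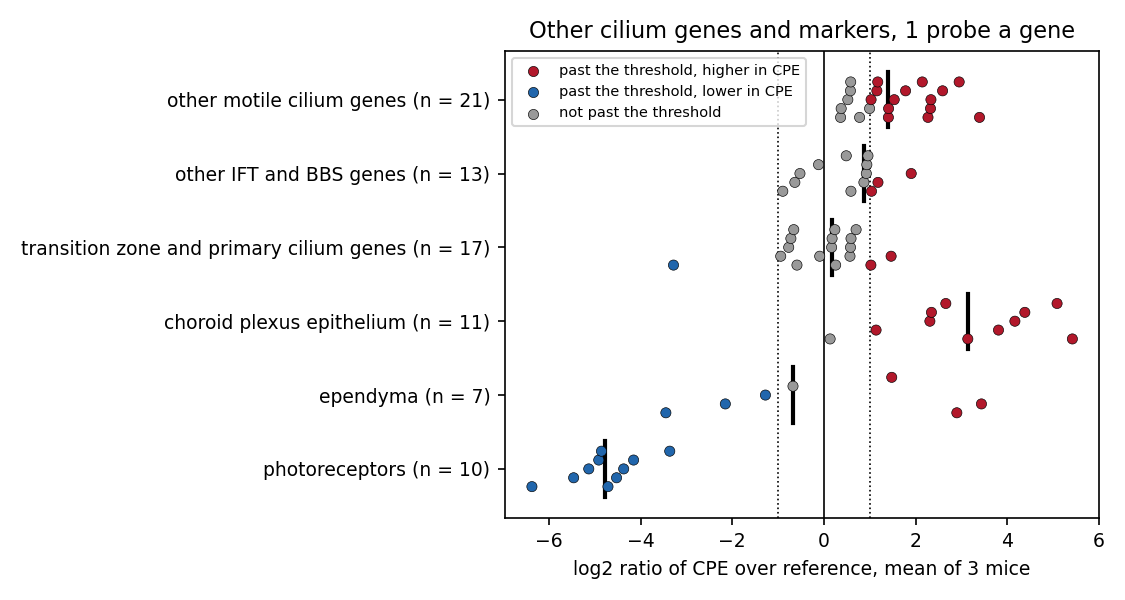
Mean log2 ratio of CPE over reference (x axis) for the brightest probe of each gene in 3 further cilium lists and 3 lists of cell type markers, with the call as colour, the median as a thick line and dotted lines at 2-fold. Motile cilium genes lie to the right of 0 and photoreceptor markers to the left of -3.

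Markers of CPE and of other cell types were read in the same comparison. Of the CPE markers, 15 of 18 tested probes were higher and none was lower, with Kl (5.42), Htr2c (5.09), Prlr (4.38) and Kcne2 (4.17) the largest ratios. All 12 photoreceptor probes were lower, with Nrl (-6.37), Prph2 (-5.46), Pdc (-5.13) and Gnat1 (-4.91) the furthest, and so were 8 of 9 tested probes of RPE and melanocyte genes, down to -8.17 for Tyrp1. Intensities were also summed over the brightest probe of each gene after Aquantile normalization, without correction of background or between the dyes. The sum of the photoreceptor list was 8890 to 15173 in CPE and 161612 to 193001 in the reference. That of the RPE and melanocyte list was 4964 to 8180 against 148733 to 166060, and Tyr, the enzyme of pigment synthesis, was well above background on no array in CPE. Neuron markers were lower at 12 of 15 tested probes, down to -4.71 for Nefl, with a sum of 2226 to 4043 against 14030 to 17854. The ependyma, which lines the ventricles next to the CPE and carries motile cilia, was split, with Mia1 (3.44), Nnat (2.90) and Sox2 (1.48) higher and S100b (-3.45), Vim (-2.15) and Aqp4 (-1.28) lower. The median log2 ratio of the 11 tested ependyma probes was -0.53. Their list had a summed intensity of 23710 to 27253 in CPE and 18857 to 22581 in the reference. Without dye correction, so small a difference between these sums has no sure direction. At an Ift20 probe, for example, the levels were 12.5 in CPE and 11.5 in the reference, with a loess log2 ratio of 0.07. The part of ependymal RNA in the ratios of the motile cilium genes was not tested, and in bulk RNA fewer cells of a type cannot be told apart from less RNA per cell.

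The arrays differed between mice, and mouse 3 stood apart at the called genes. Of the members, 80, 63 and 107 probes were well above background in the CPE channel of mice 1, 2 and 3, and over all probes these were 58.5%, 46.0% and 85.6%. Mouse 3 had the lowest ratio for 18 of the 19 higher members, with a median difference of -1.21 from the mean of the other mice. Over all probes called higher it was lowest for 74.7%, with a median difference of -0.59. The exception among the members was Ift57. Mouse 3 was the lowest for 25 of the 56 members tested and not called, with a median difference of -0.12. The median CPE signal of mouse 3's array, before any correction, was 684 against 139 and 104 on the arrays of mice 1 and 2. The 5th percentile of the CPE signal was 299 against 78 and 75, at a median local background of 58 against 57 and 56. The median reference signal was 379 against 175 and 170. More probes above background on that array thus do not show more expression, and the part of these signals in the lower ratios was not tested. Leaving out mouse 3 gave 23 higher members, among them all 19, while 8.88% of all probes tested were higher.

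**Figure D5:**
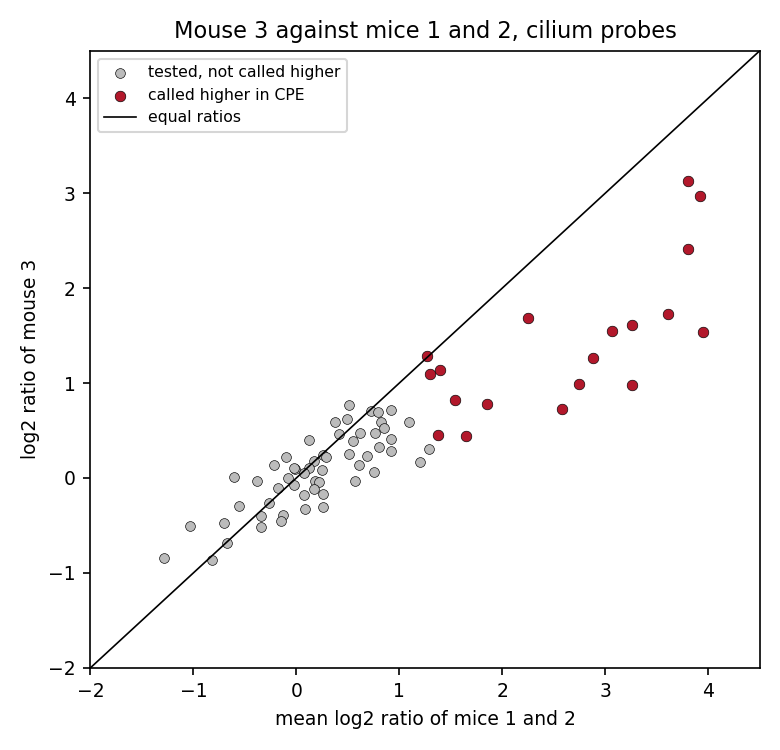
Log2 ratio of CPE over reference in mouse 3 (y axis) against the mean of mice 1 and 2 (x axis) for the 76 tested member probes. The line marks equal ratios. All probes called higher except that of Ift57 lie below the line, with a median difference of -1.21, and the others scatter around it.

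Over the 47 member probes detected in CPE and reference alike on every array, the median SD between mice of the log2 CPE level was 0.43, and that of the reference level, which is 1 RNA, was 0.34. Over all 17951 such probes these were 0.34 and 0.31. The members with the largest SD were probes of Pcm1 (0.91), Bbs4 (0.81), Ift74 (0.76), Ift57 (0.68) and Tekt1 (0.67). In Pcm1, Bbs4 and Ift74 mouse 2 was the low one, and in Tekt1 it was mouse 3.

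Many of these genes are long, and the probe within a gene mattered. In 36 member genes with probes at least 100 bases apart on 1 strand, the outermost pair was compared. In 17 pairs (47.2%) the probe nearer the 3′ end was well above background in CPE on all 3 arrays and that nearer the 5′ end was not, and in 2 pairs it was the reverse. Over all 8388 such pairs on the array these were 38.3% and 6.31%. The median distance within a pair was 35893 bases in member genes and 6344.5 over all genes, so these shares are not of like pairs. Of the 10 genes with a pair and a probe called higher, 7 showed the first pattern. The called probes were themselves well above background in CPE, so the 7 cannot be set against the share of all genes. In Hydin, for example, the probe nearest the 3′ end had a mean of 1.49, while the other, 225864 bases away, was above background in CPE on no array. The same held for Dnahc2, Dnahc5, Dnahc6, Dnahc9, Pcm1 and Spag6, whose 5′ probes were above background on fewer than 3 arrays. RNA was amplified from the 3′ end, and the part of this in the pattern was not tested. Where both probes of a pair were tested, the ratio was larger nearer the 3′ end in 8 of 14 member pairs and in 51.5% of the pairs of all genes. A missing call at a probe near the 5′ end does not show equal levels.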

How the data were processed

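The authors scanned the arrays with Agilent Feature Extraction 9.5.3.1. The deposited scanner tables give the intensity of each spot in both channels on a linear scale with its local background, and a log10 ratio of red over green made by the scanner software. A deposited log2 table, which the authors normalized between arrays by Aquantile in R 2.14.0, tracks the CPE channel and served as an alternative. Spots that were controls or outliers were dropped, and the remaining spots of a probe were averaged. Ratios were computed in R 4.3.3 with limma 3.58.1 after normexp correction (offset 50) and loess, and the mean of 3 mice was tested against 0 with Benjamini-Hochberg adjustment over all 25847 probes tested. The offset draws ratios of dim probes toward 0. Percentiles are of the mean red intensity after Aquantile. On simulated data for 14389 bright probes, 100% of 4-fold and 99% of 2.8-fold changes were recovered. Dim probes and 2-fold changes were not simulated, so these shares do not give the power at dim members. Probe coordinates are on mm8, without annotation, so exons are not given. Accessions placed 74 of 122 member probes in RefSeq. Members and lists were chosen with earlier results of these data known. Text values follow a rule: in each role the 3 largest called ratios per direction and the 2 highest ranks, plus Foxj1, Rfx3, Kif3a, Ift88, Bbs4, Hydin and Spag16, the 5 largest SDs, and up to 4 genes per direction of each other list, of which some are not reported here. Alternatives were median centring, no background correction, the scanner ratio, other filters, 1 probe per gene and leaving out each mouse. Human arrays were not analysed here.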

Additional observations from a re-analysis of the deposited data

How the results depend on the processing

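The number of members higher in CPE, 19, became 32 with median centring and lay between 15 and 23 under most other alternatives. It was 9 when only probes above background in both channels were tested, which leaves 47 members. Under that filter 9.00% of all 17951 probes tested were higher and 11.3% lower. Leaving out 1 mouse gave 18 to 23 higher members and 0 to 2 lower ones, while 5.48% to 8.88% of all probes tested were higher and 9.26% to 10.1% lower. The number lower, 1, was 3 by the scanner's ratio, 0 after median centring and 0 with 1 probe per gene. Over all probes tested, 15.1%, 7.13% and 11.2% were lower under these settings. The 15 probes in the high class became 6 when only probes above background in CPE were ranked. Fewer than the 122 members are ranked in that setting, so these counts are not shares of 1 set. The ratio of the median SD between mice in CPE to that in the reference, 1.24, was 2.26 with median centring of each channel. Without 1 mouse it was 0.66 to 1.01, with 0.66 without mouse 1. Over all 17951 probes detected in both channels the ratio was 1.08, and 2.46 with median centring, above that of the members. Without 1 mouse it was 0.79 to 0.92 over all these probes. Of 35 probes followed through the alternatives, none changed sign with a call under either setting, 6 values lost their call and 7 gained one. Dnaic1 and the weakest Spag16 probe lost it without background correction (0.95 and 0.94). Member ratios were larger by the scanner, where the median over the 19 probes was 4.36, 4.45 and 2.10 in mice 1, 2 and 3, against 2.72, 2.75 and 1.26. No paired analysis was possible because there is 1 group. With 3 arrays and 46 members below the filter, a missing call does not show equal expression.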
